A study of Mus musculus with 14 samples.

Results

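The comparison described here set 3 kidney libraries taken at day 1 after renal ischemia-reperfusion injury (IRI) against 4 kidney libraries of day 0, out of 14 libraries in the series. The members were chosen by their labels: day 1 replicates 3, 4 and 5 and day 0 replicates 1 to 4, all of which carry a 1-digit number in the library name, whereas day 1 replicates 1 and 2 carry a 3-digit number. The meaning of these formats is not in the labels; they were handled as a batch of unknown kind, and all 7 libraries compared are of 1 format. All mice were males of strain C57/B6, 8 weeks old, and the tissue was kidney; the labels name no allele or drug in either group. The library names call the day 0 mice controls, and neither the labels nor the study's text say whether they were sham-operated. The sources do not give the time of day at which kidneys were taken.

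In IRI the blood supply of the kidney is stopped and then let back in, and tubule cells, above all those of the proximal tubule and the thick ascending limb, are starved of oxygen and then stressed again when flow returns. Immediate early genes, such as the FOS, JUN and EGR transcription factors, need no new protein to be switched on and are known as the earliest wave of the response to a stimulus, with feedback inhibitors and cytokines close behind. Genes such as Havcr1, which encodes kidney injury molecule KIM-1, and Lcn2, which encodes the secreted iron-siderophore binder NGAL, are widely used as markers of tubular injury.

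Reads on genes numbered 16485636 to 17935503 per library at day 0 and 13399023 to 19405406 at day 1, and libraries lay further from those of the other day (Euclidean distances of log2 values from 134 to 158) than from those of their own (33.6 to 64.7). Reads mapped to more than 1 place made up 8.01% to 8.79% at day 0 and 10.9% to 12.7% at day 1, and reads outside genes 12.5% to 13.1% and 13.8% to 17.0%. Day 1 replicate 5 had the fewest reads and 1.39% of them on the ribosomal precursor Rn45s, against 0.355% to 0.464% in the other 6 libraries. Day 0 replicate 4 stood apart from the other day 0 libraries, with a summed level of 9 urothelium genes of 105 CPM (counts scaled to library size) against 14.4 to 27.8 CPM, and of the 8 listed adipocyte genes, tested or not, of 168 against 53.4 to 66.1 CPM. Leaving out Rn45s gave 9123 genes called in place of 9122 in the comparison below, leaving out day 1 replicate 5 gave 8421 and leaving out day 0 replicate 4 gave 8914; the part of the mapping shares was not tested. Kap, an androgen-regulated proximal tubule gene, was high in all 7 libraries, between 24770 and 31036 CPM.

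Of 13861 genes tested, 4667 were higher (33.7%) and 4455 lower (32.1%) at day 1 at an adjusted p under 0.05 by edgeR's quasi-likelihood test with Benjamini-Hochberg adjustment, the call used throughout; each list count against day 0 stands against these 2 shares. Requiring a change of at least 1 on the log2 scale left 2037 higher (14.7%) and 2096 lower (15.1%). The median log2 fold change of all tested genes was -0.01. With library totals in place of TMM scaling this median was -0.16, and the calls were 3877 higher and 5446 lower, so that the higher share of calls went from 51.2% to 41.6%. Values did not overlap between the 2 groups in 9144 of the tested genes (66.0%), of which 8665 were called. Genes called higher by at least 8-fold numbered 302, and genes lower by as much 169. Counts in whole kidney cannot tell fewer cells of a type from less RNA per cell, and nothing says that the libraries of a group came from separate animals, so p-values measure the spread between these libraries.

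**Figure D1:**
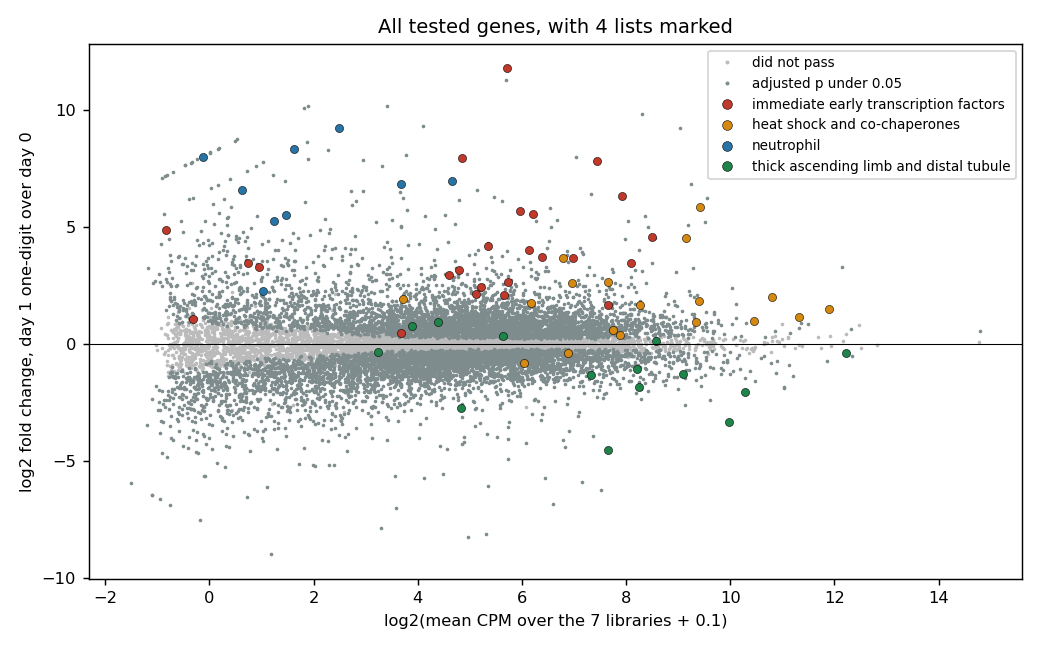
Log2 fold change of each of the 13861 tested genes (vertical axis) against the log2 of its mean CPM over the 7 libraries plus 0.1 (horizontal axis), with 4 gene lists in color. Immediate early and heat shock genes lie mostly above 0, the neutrophil genes that had enough reads to be tested had them at day 1, which fixed their side of 0, and 8 of 14 genes of the thick ascending limb and distal tubule were called lower; for genes with no or few counts at day 0 the fitted value depends on the prior count and is no bound.

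Immediate early transcription factors were higher at day 1 in 23 of 24 tested genes and lower in 0, with a median log2 fold change of 3.55, and in 22 of the 24 the groups did not overlap, against 66.0% of all tested genes. Fosl1 and Fosb had enough reads to be tested only through the day 1 libraries, which fixed their direction. The same holds for Dusp2, Il1r2, Areg and Timp1 in the lists below. Fos had 0.692, 0.601, 0.703 and 9.21 CPM in the 4 day 0 libraries and 174, 76.2 and 176 CPM in the 3 day 1 libraries. Every day 1 library was above every day 0 library, although day 0 replicate 4 was far above the other 3 of its group. Its log2 fold change was 5.67 (SE 0.78, adjusted p = 0.000163), and 7.72 when the fit left out day 0 replicate 4. Egr1, a zinc finger factor, had 5.0, 2.29, 2.23 and 18.4 CPM at day 0 and 682, 365 and 614 CPM at day 1. It showed the same high day 0 replicate 4 and rose by 6.31 on the log2 scale (SE 0.68, adjusted p = 3.69e-05), and by 7.43 without that library.

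Atf3, a stress-induced repressor of the ATF/CREB family, had 1.49, 2.79, 1.41 and 1.47 CPM at day 0 and 536, 185 and 490 CPM at day 1, a log2 fold change of 7.81 (SE 0.43, adjusted p = 7.99e-07). Klf6, a zinc finger factor expressed in many tissues, varied little within each group. It had 32.7, 36.4, 35.4 and 33 CPM at day 0 and 784, 765 and 845 CPM at day 1, a log2 fold change of 4.54 (SE 0.10, adjusted p = 1.74e-08). Jun, a partner of FOS in the AP-1 dimer, had 46.0 to 58.2 CPM at day 0 and 872, 239 and 587 CPM at day 1, so that replicate 4 was the lowest of the 3 as for Fos, Egr1 and Atf3. Fosl1, another FOS family member, had 2 reads in all at day 0 and 95.1, 156 and 117 CPM at day 1, a ratio of the pooled counts of 4490 (95% exact interval from counting error alone 1240 to 37100) that was 6770 without day 0 replicate 4. Fosb rose by 7.94 (SE 0.45), and the ratio of its pooled counts was 242, and 496 without day 0 replicate 4. Jund, the family member with the highest day 0 level, rose by 1.66 (SE 0.21), and Nr4a2, a nuclear receptor at no more than 1.39 CPM, was the gene that did not pass (1.07, SE 0.54, adjusted p = 0.108).

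RefSeq promoter windows of the GRCm38.p6 build, from 250 bases before to 50 after the start site, were held for 18 of these 24 genes. They were searched on both strands for the CArG box, which binds serum response factor (SRF), for the cyclic AMP element TGACGTCA and for the AP-1 site TGANTCA. The CArG box was found for 1 of the 18 genes (5.56%, against 1.81% of 27025 genes with a window), TGACGTCA for 2 (11.1%, against 2.03%) and TGANTCA for 0 (against 8.97%). The matching stretches are shown because their genes rose, with the motif in capitals and 15 bases on either side. Egr2 lies at chr10:67537479-67537518 on the plus strand, Maff at chr15:79347476-79347513 on the plus strand, and Btg2 at chr1:134079299-134079336 on the minus strand.
Egr2: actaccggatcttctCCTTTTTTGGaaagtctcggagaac
Maff: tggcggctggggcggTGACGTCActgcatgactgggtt
Btg2: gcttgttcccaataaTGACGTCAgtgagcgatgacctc
Maff, a small partner protein of bZIP factors, rose by 5.54 (SE 0.19), Egr2 by 3.44 (SE 0.49) and Btg2, an antiproliferative gene, by 2.06 (SE 0.21). A match of letters is a description of the window and does not show that a factor binds there.

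Feedback inhibitors of the pathways that drive immediate early genes moved the same way. Among 13 genes that restrain MAP kinase signaling, phosphatases of the DUSP family and Sprouty proteins, 12 were higher and 0 lower (median 2.38). Dusp5, a nuclear phosphatase of ERK, had 0.546 to 0.678 CPM at day 0 and 30.3, 33.3 and 30.3 CPM at day 1 (log2 fold change 5.69, SE 0.14, adjusted p = 1.74e-08), and Dusp1, with the most reads of them at day 1, rose by 2.23 (SE 0.13). Spred2 was at 22.0 to 26.8 CPM at day 0 and 22.7, 29.9 and 24.2 CPM at day 1 and did not pass (adjusted p = 0.801). Of 14 genes of NF-kB feedback, 13 were higher and 0 lower (median 2.00). Nfkbia, which encodes the inhibitor IkB alpha, had 36.3 to 54.4 CPM at day 0 and 166, 166 and 168 CPM at day 1, a log2 fold change of 1.95 (SE 0.13). Zfp36, an RNA-binding protein that shortens the life of cytokine mRNAs, rose by 2.47 (SE 0.18), Zc3h12a, an RNase, by 2.98 (SE 0.16) and Relb by 2.97 (SE 0.19).

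Among 25 cytokine and chemokine genes 16 had enough reads to be tested, which for several rested on the day 1 libraries alone. Of these 16, 15 were higher and 0 lower (median 3.45, and 3.45 with Il6 and Csf3 put at their lower bounds). Il6 had no read in any day 0 library and 4.8, 4.34 and 14.9 CPM at day 1, at least 178-fold higher than 3 counts over the day 0 group would give, and at least 109-fold without day 1 replicate 5, which was the highest. Csf3, the granulocyte growth factor G-CSF, was likewise at 0 at day 0 and at least 57.7-fold higher. Cxcl1, a neutrophil attractant, had 1.70, 0.874, 0.820 and 1.36 CPM at day 0 and 315, 340 and 257 CPM at day 1, a log2 fold change of 7.98 (SE 0.22, adjusted p = 2.32e-08). Cxcl2, its close relative, had 3 reads at day 0 and 128, 126 and 106 CPM at day 1, a ratio of 2900 (95% exact interval from counting error 991 to 14100) that was 6630 without day 0 replicate 3. Lif rose by 6.46 (SE 0.33). Il34, a ligand of the macrophage growth factor receptor, had 17.2 to 22.1 CPM at day 0 and 89.1, 193 and 146 CPM at day 1 (2.89, SE 0.23). Il33, an alarmin, did not pass (0.62, SE 0.32, adjusted p = 0.116), and the tumor necrosis factor gene Tnf and Il1a, at no more than 16 and 4 reads in a library, were not tested.

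On the receiving side, 13 of 16 cytokine receptors and inhibitors were higher and 1 was lower (median 2.10). Socs3, the feedback inhibitor of the IL-6 receptor family, had 1.33, 1.64, 1.70 and 1.81 CPM at day 0 and 90.7, 110 and 135 CPM at day 1 (log2 fold change 6.10, SE 0.17, adjusted p = 3.24e-08). Tnfrsf12a, the TWEAK receptor, had 20.7 to 28.6 CPM at day 0 and 606, 906 and 795 CPM at day 1 (5.01, SE 0.18). Il1r2, the decoy receptor of IL-1, rose by 7.85 (SE 0.54), Osmr by 2.94 (SE 0.15) and Stat3 by 2.28 (SE 0.12). With 5 reads in all at day 0, Il1r2 had a ratio of pooled counts of 247, and of 455 without day 0 replicate 1. The shared receptor chain Il6st had 139 to 168 CPM at day 0 and 155, 157 and 133 CPM at day 1 (adjusted p = 0.746). Lifr fell by 0.40 (SE 0.10).

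In the EGF receptor system 4 of 10 tested genes were higher and 3 lower, close to the shares over all tested genes (33.7% and 32.1%). Among the ligands, Hbegf had 16.5 to 19 CPM at day 0 and 362, 205 and 328 CPM at day 1 (log2 fold change 4.07, SE 0.19), and Areg had 1 read at day 0 and 100 at day 1. Egf itself, made in the distal tubule, had 1805 to 1903 CPM at day 0 and 492, 367 and 464 CPM at day 1 and fell by 2.07 (SE 0.13, adjusted p = 1.57e-06), and the ligand Btc fell by 2.00 (SE 0.27). Of the receptors, Egfr rose by 0.55 (SE 0.09) and Erbb2 fell by 1.03 (SE 0.11).

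Tubular injury genes were higher in 19 of 20 and lower in 0, with a median log2 fold change of 3.28, and the gene that did not pass was Havcr1. Havcr1 had 83.1, 111, 96.1 and 104 CPM at day 0 and 29.1, 145 and 44.0 CPM at day 1. Of the day 1 libraries, replicates 3 and 5 lay below all of day 0 and replicate 4 above all of it. Its log2 fold change was -0.43 (SE 0.44, adjusted p = 0.407). Without day 1 replicate 4 it was -1.43 and passed the test (adjusted p = 0.000315), and without day 1 replicate 3 it was -0.05 (adjusted p = 0.911). Lcn2 had 1.97, 3.00, 1.82 and 1.53 CPM at day 0 and 457, 1391 and 1836 CPM at day 1, a log2 fold change of 9.20 (SE 0.52, adjusted p = 9.23e-07). Krt20, a keratin of intermediate filaments, had 0.0532, 0.437, 0.351 and 2.37 CPM at day 0 and 342, 1158 and 698 CPM at day 1 (9.83, SE 0.71).

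Other members of the injury list covered a wide range of levels. Spp1, which encodes osteopontin, had the most reads of the list at day 1, with 6037, 10289 and 11610 CPM against 870 to 1150 CPM at day 0 (log2 fold change 3.28, SE 0.22). Clu, the secreted chaperone clusterin, rose by 3.23 (SE 0.17), Sox9, a transcription factor of tubule repair, by 6.23 (SE 0.41), Timp1, a metalloproteinase inhibitor with 13 reads in all at day 0, by 6.54 (SE 0.59), and Krt8 by 3.07 (SE 0.17). The ratio of the pooled Timp1 counts was 93.3, and 226 without day 0 replicate 2, which held 9 of the 13 reads. Krt7 rose least among those called (0.95, SE 0.11). In 18 of the 20 genes day 1 replicate 3 was the lowest of the 3 day 1 libraries, where over all tested genes it was the lowest in 38.5%.

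**Figure D2:**
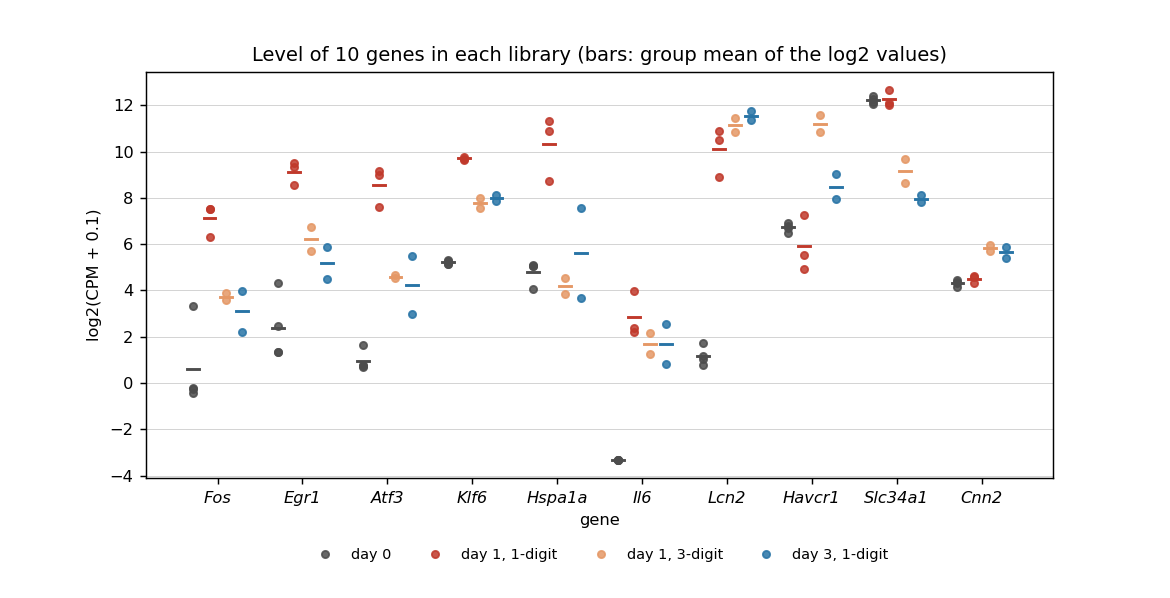
Log2 of CPM plus 0.1 (vertical axis) of 10 genes fixed for description, in each day 0, 1-digit day 1, 3-digit day 1 and 1-digit day 3 library (points), with the group mean of the log2 values as a bar. In the 1-digit day 1 libraries Fos, Egr1, Atf3, Klf6 and Hspa1a lie above every other library shown, and Havcr1 lies far below its 3-digit day 1 values; Il6 at day 0 is at 0 reads.

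Heat shock proteins and their helpers, which hold or refold damaged proteins, were higher in 15 of 18 genes and lower in 2 (median 1.70). Hspa1a, an inducible HSP70, had 15.2, 31.6, 30.2 and 30.9 CPM at day 0 and 2447, 405 and 1820 CPM at day 1. The groups were far apart, yet day 1 replicate 4 was well below the other 2, and the log2 fold change was 5.85 (SE 0.56, adjusted p = 1.82e-05). Hspa1b, its near-identical neighbor, rose by 4.51 (SE 0.58). Only uniquely mapped reads were counted, so the split of reads between these 2 genes is uncertain. Hspb1, a small heat shock protein, had 12.7 to 30.4 CPM at day 0 and 204, 238 and 254 CPM at day 1 (3.65, SE 0.27). The abundant chaperones moved less on the log2 scale: Hspa8 rose by 1.47 (SE 0.25) to 7787, 4200 and 5966 CPM, and Hsp90ab1 by 1.13 (SE 0.11) to 4054, 3364 and 3681 CPM.

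Members of the heat shock list that did not rise were co-chaperones and a crystallin. Chordc1 fell by 0.82 (SE 0.21) and Stip1 by 0.42 (SE 0.11), both of which assist HSP90. Cryab was at 88.0 to 413 CPM at day 0, highest in replicate 4, and at 173, 219 and 409 CPM at day 1 (adjusted p = 0.353). Summed over the list, the level was 6646 to 8202 CPM at day 0 and 26700, 15060 and 23530 CPM at day 1. Replicate 4 was the lowest day 1 library in 14 of the 18 genes, against 33% of all tested genes.

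Heat shock factor binds inverted repeats of GAA, and the promoter windows of 14 of the 18 genes were searched for GAANNTTC or TTCNNGAA, each of which reads the same on both strands, with overlapping matches counted. At least 1 match was found for 11 of the 14 genes (78.6%), against 17.0% of all 27025 genes with a window, and of those 11 genes 10 were called higher and Chordc1 lower. Of the searched genes without a match, Dnajb1 and Hspa4 were called higher and Stip1 lower. The 8 genes with a match that rose most are shown, to compare how the repeat stands in each, with the matches in capitals and coordinates on GRCm38.p6.
Hspa1a: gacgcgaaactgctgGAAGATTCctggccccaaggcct
Hspa1b: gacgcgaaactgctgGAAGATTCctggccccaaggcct
Hspb1: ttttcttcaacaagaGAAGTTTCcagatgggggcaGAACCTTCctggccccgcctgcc
Bag3: ctctggatgggaccaGAAGTTTC
Hspb8: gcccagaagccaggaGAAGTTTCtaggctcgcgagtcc
Hsph1: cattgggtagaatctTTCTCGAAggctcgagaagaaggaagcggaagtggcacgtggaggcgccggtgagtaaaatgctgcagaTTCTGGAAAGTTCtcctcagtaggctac
Dnajb4: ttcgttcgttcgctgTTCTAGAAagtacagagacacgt
Hspe1: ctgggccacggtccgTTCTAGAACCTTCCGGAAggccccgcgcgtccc
The stretch of Hspa1a lies at chr17:34972238-34972275 and that of Hspa1b at chr17:34959320-34959357, both on the minus strand, and the 2 are identical over their 38 bases, beginning at the same distance from the start site. Hspb1 lies at chr5:135887787-135887844 (plus) with 2 matches, Bag3, an HSP70 co-chaperone, at chr7:128523610-128523632 (plus), and Hspb8, its partner, at chr5:116422840-116422877 (minus). Hsph1, an HSP70 exchange factor with 3 matches, lies at chr5:149636273-149636384 (minus), Dnajb4 at chr3:152193837-152193874 (minus) and Hspe1, the mitochondrial HSP10, with 3 matches, at chr1:55088044-55088091 (plus). Bag3 rose by 2.59 (SE 0.16), Hspb8 by 1.90 (SE 0.14), Hsph1 by 1.83 (SE 0.30), Dnajb4 by 1.73 (SE 0.26) and Hspe1 by 1.67 (SE 0.14) on the log2 scale.

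In the unfolded protein and integrated stress response 10 of 16 genes were higher and 3 lower (median 0.90), against 33.7% and 32.1% of all tested genes. Atf4, the central transcription factor of the integrated stress response, had 91.6 to 115 CPM at day 0 and 555, 772 and 574 CPM at day 1 (2.57, SE 0.14), and its targets Trib3 and Asns rose by 4.05 (SE 0.25) and 2.97 (SE 0.34). Ppp1r15a, the phosphatase subunit that reverses the block on translation, rose by 3.97 (SE 0.13). Of the chaperones of the endoplasmic reticulum, Hspa5 rose by 0.89 (SE 0.13) while Calr fell by 0.50 (SE 0.10), Dnajc3 by 0.64 (SE 0.09) and Sdf2l1 by 1.63 (SE 0.19).

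Targets of hypoxia-inducible factor had a median of 0.22, with 9 of 19 higher and 5 lower, against 33.7% and 32.1% of all tested genes. Hk2, a hexokinase, rose by 3.14 (SE 0.46) and Adm, a vasodilator peptide, by 1.92 (SE 0.14), whereas Pdk1, which limits entry of pyruvate into mitochondria, fell by 1.82 (SE 0.13), Egln3 by 0.92 (SE 0.30) and Vegfa by 0.53 (SE 0.13). Ndrg1 and Aldoa, the 2 with the most reads of this list, did not pass (adjusted p = 0.415 and 0.0762). Eno1 had 0 reads in every library, which does not show that it was not expressed, since only uniquely mapped reads were counted.

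Of the NRF2 targets and metallothioneins, 10 of 16 were higher and 3 lower (median 1.45), against 33.7% and 32.1% of all tested genes. Hmox1, which breaks down heme, had 31.4 to 48.6 CPM at day 0 and 871, 872 and 735 CPM at day 1 (4.51, SE 0.18, adjusted p = 1.52e-07). Mt2 and Mt1, metal-binding proteins, rose by 6.81 (SE 0.28) and 5.07 (SE 0.20). The glutathione genes Gclc, Gclm and Gstm1 fell by 1.13 (SE 0.22), 0.64 (SE 0.14) and 1.30 (SE 0.11), and Nqo1, often taken as a readout of NRF2, was at 39.6 to 47.9 CPM at day 0 and 29.8, 54.2 and 37.9 CPM at day 1 (adjusted p = 0.719). Among p53 targets 13 of 16 were higher and 0 lower (median 1.22). Cdkn1a, the cell cycle inhibitor p21, had 17.1 to 33.7 CPM at day 0 and 425, 673 and 571 CPM at day 1 (4.46, SE 0.25), and Gadd45b and Pmaip1 rose by 3.54 (SE 0.29) and 2.71 (SE 0.21). Ccng1, the p53 target of the list with the most reads at day 0, did not pass (-0.37, SE 0.16, adjusted p = 0.0644).

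Ribosome biogenesis genes, which are known targets of Myc, were higher in 17 of 21 and lower in 1 (median 0.87). Myc itself had 5.09 to 8.68 CPM at day 0 and 54.1, 54.4 and 58.7 CPM at day 1 (3.13, SE 0.17). Nop58, a core protein of small nucleolar particles, rose by 1.88 (SE 0.16), Gnl3 by 1.74 (SE 0.11), and Ncl, with the most reads of them, by 1.14 (SE 0.12), whereas Utp20 fell by 0.29 (SE 0.09). Among 20 actin genes and targets of SRF 17 were higher and 1 lower (median 1.41). Cyr61 and Ctgf, matricellular proteins, rose by 5.24 (SE 0.24) and 3.44 (SE 0.12), and Actb and Actg1 by 1.26 (SE 0.16) and 1.02 (SE 0.12). Myl9 fell by 0.71 (SE 0.12).

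Cnn2, the actin-binding calponin 2 that the study is about, was at 16.2, 19.1, 20 and 18.6 CPM at day 0 and at 23.2, 22.8 and 19 CPM at day 1. The groups overlapped, since day 1 replicate 5 lay below 2 of the day 0 libraries, and the log2 fold change was 0.23 (SE 0.12, adjusted p = 0.119). Leaving out each library in turn gave 0.17 to 0.31, with adjusted p from 0.0565 to 0.287. Its relative Cnn3 rose by 0.57 (SE 0.11).

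Of 18 clock genes 9 were higher and 6 lower, against 33.7% and 32.1% of all tested genes, with a median of 0.45. Nr1d1, the nuclear receptor REV-ERB alpha, had 4.63, 2.40, 3.51 and 7.23 CPM at day 0 and 464, 248 and 401 CPM at day 1 (6.38, SE 0.35, adjusted p = 7.99e-07), and Ciart, a repressor of the core clock, had 0.644 to 1.58 CPM at day 0 and 71.2, 23.1 and 61.2 CPM at day 1 (5.50, SE 0.42). Per1 rose by 2.58 (SE 0.13), Bhlhe41 by 3.65 (SE 0.35), Dbp by 2.58 (SE 0.32) and Cry2 by 1.81 (SE 0.15). Of the activators, Arntl (BMAL1) fell by 0.74 (SE 0.23) and Clock by 0.75 (SE 0.12), and Hlf and Tef fell by 1.62 and 0.52. Per2 was at 51.4 to 63.8 CPM at day 0 and 64.7, 41.5 and 46.3 CPM at day 1 (adjusted p = 0.476). Replicate 3 was the highest of the day 1 libraries in 13 of the 18 genes.

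**Figure D3:**
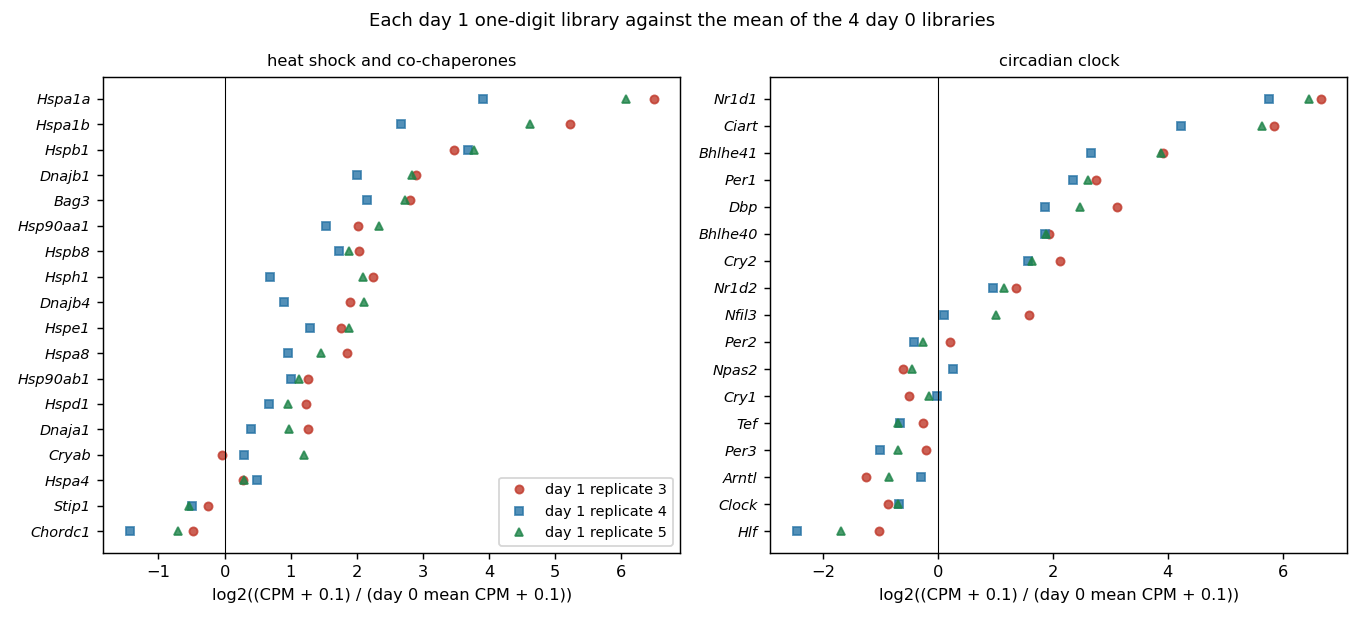
Log2 ratio of each 1-digit day 1 library to the mean of the 4 day 0 libraries (horizontal axis, 0.1 CPM added to both) for the 18 tested heat shock genes and 17 of the 18 tested clock genes (rows, ordered by fitted fold change), 1 symbol per library. Day 1 replicate 4 is the lowest of the 3 in 14 of the heat shock genes and in 12 of the clock genes shown.

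Among 18 G1 and replication genes 5 were higher and 3 lower (median 0.01), against 33.7% and 32.1% of all tested genes, led by Cdt1, which licenses replication origins (1.54, SE 0.28), and of 15 mitosis genes 0 were higher and 2 lower, Cenpf and Kif11. Ccnd1 had 210 to 333 CPM at day 0 and 258, 163 and 280 CPM at day 1 (adjusted p = 0.359), and Mki67 had 4.24 to 11.7 CPM at day 0 and 5.64, 6.76 and 6.42 CPM at day 1 (adjusted p = 0.248). In 12 of the 15 mitosis genes replicate 3 was the lowest day 1 library.

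Fatty acid oxidation, the main fuel route of proximal tubule cells, had 4 of 21 genes higher and 7 lower (median -0.23), the lower share being close to the 32.1% over all tested genes. Ppargc1a, the coactivator of mitochondrial genes, had 82.2 to 90.2 CPM at day 0 and 29.4, 18.6 and 27.4 CPM at day 1 and fell by 1.80 (SE 0.15, adjusted p = 8.84e-06). Acadm, the medium-chain acyl-CoA dehydrogenase and the member with the most reads at day 0, fell by 1.28 (SE 0.14) and Cpt2 by 0.77 (SE 0.10). Cpt1a, the entry enzyme of the pathway, was at 435 to 473 CPM and at 431, 551 and 434 CPM (adjusted p = 0.721), and Ppara at 128 to 155 CPM and 72.5, 157 and 73.7 CPM, where replicates 3 and 5 were low and replicate 4 was not (adjusted p = 0.106). The carnitine carrier Slc25a20 rose by 0.69 (SE 0.14). Of 10 genes of glucose handling 1 was higher and 3 lower (median -0.20), again close to the 32.1% of all tested genes that were lower. Pck1, the rate-limiting enzyme of gluconeogenesis, had 2916 to 3440 CPM at day 0 and 1744, 989 and 971 CPM at day 1 (-1.37, SE 0.21), G6pc fell by 1.76 (SE 0.38), Slc5a1 by 1.37 (SE 0.16), and the glucose transporter Slc5a2 rose by 0.99 (SE 0.12). Interferon-stimulated genes were higher in 9 of 13 and lower in 1 (median 1.04), with Isg15 rising by 2.30 (SE 0.43). Replicate 5 was the highest day 1 library in 12 of those 13 genes.

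**Figure D4:**
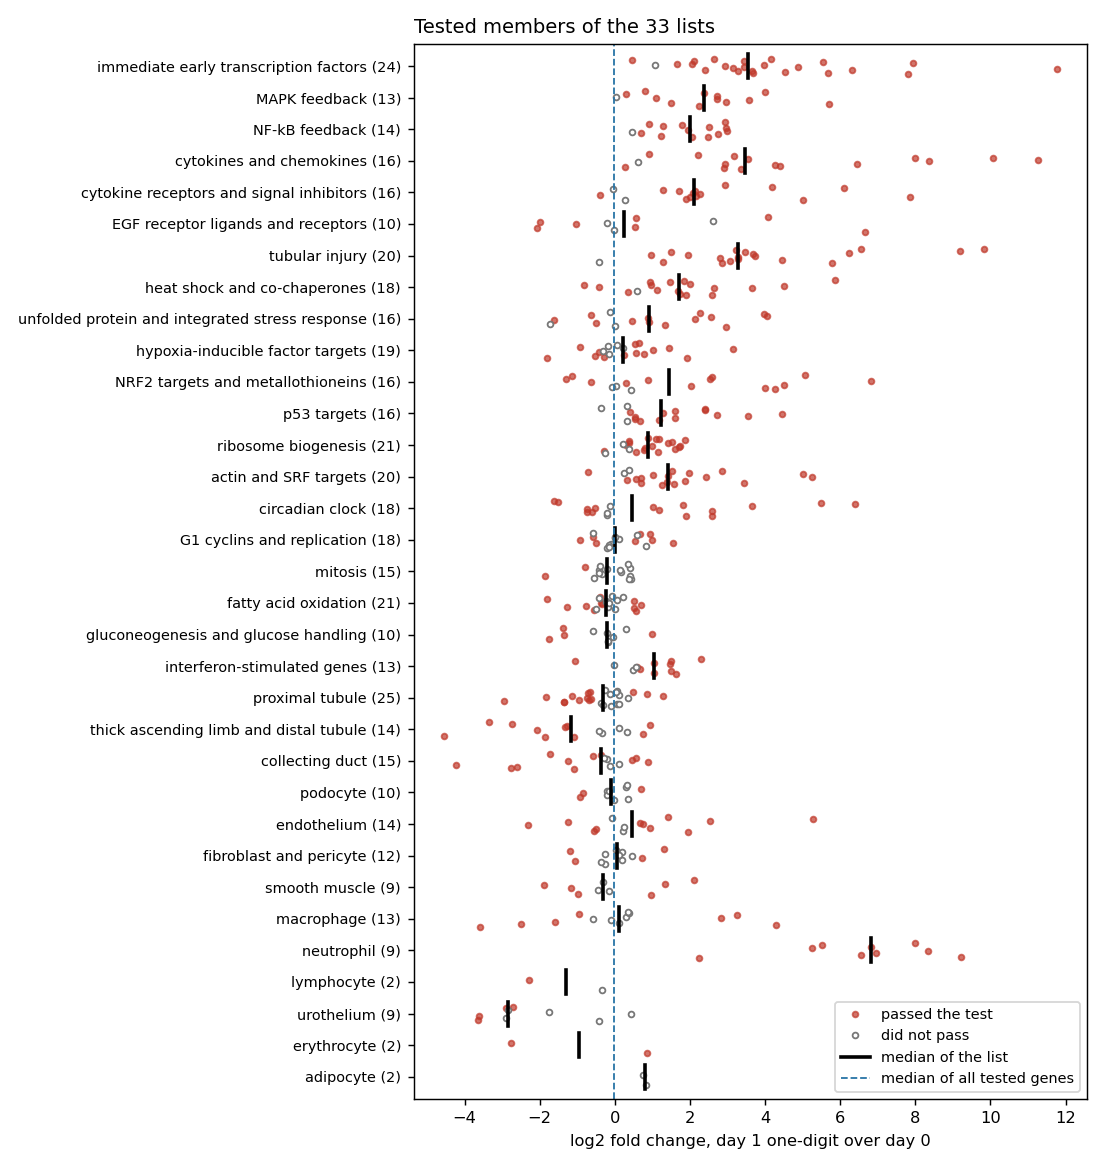
Log2 fold change, day 1 over day 0, of every tested member of the 33 gene lists (horizontal axis), with the number tested in parentheses. Filled points passed the test, open points did not, the black bar is the list's median and the dashed line the median of all tested genes (-0.01); 22 of the 33 medians are above 0.

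Along the nephron, 3 of 25 proximal tubule genes were higher, 11 lower and 11 did not pass (median -0.32), where 33.7% of all tested genes were higher and 32.1% lower. Slc34a1, the main phosphate transporter of the brush border, had 4985, 4209, 3993 and 4557 CPM at day 0 and 6092, 4179 and 4024 CPM at day 1. The groups overlapped and the log2 fold change was 0.10 (SE 0.16, adjusted p = 0.599). Kap had 24770 to 29109 CPM at day 0 and 31036, 25714 and 29090 CPM at day 1 (adjusted p = 0.740), and Slc22a6 and Slc22a8, organic anion transporters, did not pass either. Lrp2, the endocytic receptor megalin, had 2865 to 3211 CPM at day 0 and 1279, 637 and 626 CPM at day 1 and fell by 1.83 (SE 0.25). Its partner Cubn fell by 1.36 (SE 0.16), the water channel Aqp1 by 1.15 (SE 0.16), Hnf4a, a master regulator of the segment, by 0.95 (SE 0.17), and Slc22a7 by 2.94 (SE 0.25). The amino acid transporter Slc6a19 rose by 1.29 (SE 0.15), and the phosphate transporter Slc34a3 by 0.87 (SE 0.15). Replicate 3 was the highest day 1 library in 24 of the 25 genes, against 36.1% of all tested genes.

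In the thick ascending limb and distal tubule 8 of 14 genes were lower and 2 higher (median -1.18), against 32.1% and 33.7% of all tested genes. Kcnj1, the potassium channel ROMK, had 311, 385, 386 and 287 CPM at day 0 and 17.4, 14 and 12.7 CPM at day 1 and fell by 4.54 (SE 0.18, adjusted p = 1.52e-07). Slc12a1, the sodium-potassium-chloride cotransporter that works with it, had 1191 to 1950 CPM at day 0 and 138, 145 and 206 CPM at day 1 (-3.34, SE 0.23), and the tight junction gene Cldn19 fell by 2.73 (SE 0.18). Umod, with the most reads of the same list, had 4047 to 6089 CPM at day 0 and 2927, 4056 and 5029 CPM at day 1, overlapping, and did not pass (-0.42, SE 0.20, adjusted p = 0.0921). In the distal convoluted tubule, Slc12a3 had 294 to 494 CPM at day 0 and 438, 385 and 374 CPM at day 1 (adjusted p = 0.566), Trpv5 and Trpm6 rose by 0.94 (SE 0.12) and 0.76 (SE 0.20), and Calb1 fell by 1.87 (SE 0.18).

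Collecting duct genes were lower in 8 of 15 and higher in 3 (median -0.38), against 32.1% and 33.7% over all tested genes. Aqp4, a water channel of principal cells, had 98.6, 112, 153 and 89.3 CPM at day 0 and 3.63, 4.95 and 9.68 CPM at day 1 and fell by 4.24 (SE 0.33, adjusted p = 5.29e-06). Avpr2, the vasopressin receptor, fell by 2.61 (SE 0.17) and Aqp2 by 1.09 (SE 0.25). Slc4a1, the anion exchanger of acid-secreting intercalated cells and of red blood cells, fell by 2.78 (SE 0.17), whereas Slc26a4, the exchanger of base-secreting cells, rose by 0.87 (SE 0.11) and the sodium channel subunit Scnn1a by 0.45 (SE 0.09).

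**Figure D5:**
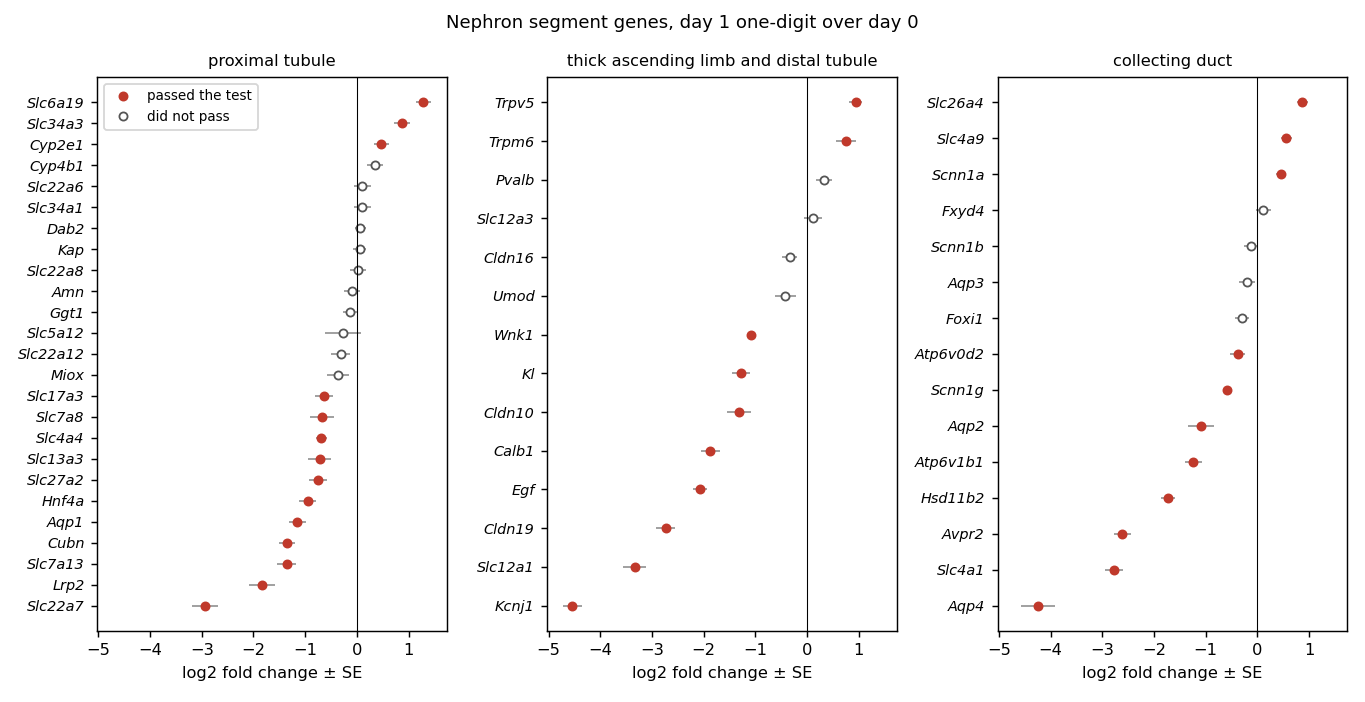
Log2 fold change, day 1 over day 0, with its standard error (horizontal axis) for the genes of 3 nephron segments (rows). Filled points passed the test and open points did not. Kcnj1, Aqp4 and Slc12a1 lie lowest, Slc34a1, Kap and Slc12a3 lie close to 0, and Umod, which did not pass, lies at -0.42.

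Of 13 neutrophil genes listed 9 had enough reads to be tested, which rested on the day 1 libraries, and these 9 were higher. The summed level of the 12 listed genes that the counts cover, tested or not, was 1.41 to 2.02 CPM at day 0 and 52.9, 103 and 227 CPM at day 1. S100a9, a calcium-binding protein of neutrophils, had 0.328 to 0.639 CPM at day 0 and 23.9, 47.9 and 102 CPM at day 1 (6.96, SE 0.54, adjusted p = 5.66e-06). Retnlg had 1 read at day 0 and 556 at day 1, a ratio of 859 (95% exact interval from counting error 153 to 34000) that was at least 218 without day 0 replicate 3, which held that read (3 counts over the rest of the group), and 513 without day 1 replicate 5. The median over the 9 genes was 6.82, and 6.56 with Stfa2l1, at 0 reads at day 0, put at its lower bound of 43.8-fold. In 9 of 9 genes replicate 3 was the lowest and replicate 5 the highest day 1 library.

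Of 13 macrophage genes 3 were higher and 4 lower (median 0.12), near or under the shares over all tested genes (33.7% and 32.1%). Cd14, a receptor of bacterial lipid that tubule cells can also express, rose by 4.29 (SE 0.28) and Cd68 by 3.25 (SE 0.24). Csf1r, the macrophage growth factor receptor, had 77.7 to 91.0 CPM at day 0 and 31.8, 28.8 and 23.3 CPM at day 1 and fell by 1.58 (SE 0.12), Lyz2 fell by 2.49 (SE 0.46) and Adgre1 by 3.60 (SE 0.89), the last with 1.75 to 11.5 CPM at day 0, highest in replicate 2. The ratio of the pooled Adgre1 counts, day 0 over day 1, was 12.7, and 5.54 without day 0 replicate 2. The complement genes C1qa, C1qb and C1qc did not pass. Of 12 lymphocyte genes 2 could be tested, and Cd8a was lower.

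Endothelial genes were higher in 7 of 14 and lower in 4 (median 0.47), the lower share being near the 32.1% of all tested genes. Icam1, which binds leukocytes, had 12.5 to 15.7 CPM at day 0 and 81.0, 86.4 and 74.2 CPM at day 1 (2.53, SE 0.11), and the junction gene Cdh5 rose by 1.94 (SE 0.12). Tek, the angiopoietin receptor TIE2, fell by 2.31 (SE 0.17) and Ehd3, a gene of glomerular endothelium, by 1.23 (SE 0.14). Among podocyte genes 1 of 10 was higher, Podxl, and 2 lower, among them Magi2 (median -0.09), both shares under those of all tested genes. Of 12 fibroblast and pericyte genes 2 were higher and 2 lower (median 0.06), also under the shares over all tested genes. Pdgfrb and Pdgfra rose by 1.31 (SE 0.12) and 0.71 (SE 0.16), Tcf21 and Rgs5 fell by 1.21 (SE 0.17) and 1.07 (SE 0.28), and the collagen genes Col1a1, Col1a2 and Col3a1 did not pass (adjusted p from 0.128 to 0.423).

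Smooth muscle genes were higher in 3 of 9 and lower in 3 (median -0.31), about the shares over all tested genes, with Tagln rising by 2.09 (SE 0.19) and Myh11 falling by 1.17 (SE 0.34). Urothelium genes were lower in 4 of 9 and higher in 0, with a median of -2.85 that became -0.74 without day 0 replicate 4, the highest day 0 library in 9 of the 9. The adipocyte and erythrocyte lists had 2 tested genes each. Of the former, Fabp4 and Cidec did not pass, and Adipoq and Cfd, defining adipocyte genes with 132 of 134 and 406 of 421 day 0 reads in replicate 4, were not tested. Of the latter, Alas2 rose by 0.87 (SE 0.28) and Slc4a1 fell, and the globin genes had 0 reads in every library. As only uniquely mapped reads were counted, this does not show that the globin genes were not expressed.

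Taken by fitted fold change alone, the 8 named genes that rose most were Fosl1, Cxcl2, Krt12, Apol8, Il6, Krt20, Slc6a19os and Retnlg. Apol8, an apolipoprotein L gene, had 0 reads at day 0 and 10.3, 5.61 and 9.37 CPM at day 1, at least 197-fold higher. Krt12, a keratin best known from the cornea, had 1 read at day 0 and 13.6, 38.9 and 21.2 CPM at day 1, a ratio of 1840 (95% exact interval from counting error 329 to 72700) that was at least 452 without day 0 replicate 1, which held that read (3 counts over the rest of the group), and 1220 without day 1 replicate 4. Slc6a19os, on the strand opposite the amino acid transporter gene Slc6a19, had 4 reads at day 0 and 20.4, 58.0 and 41.4 CPM at day 1, a ratio of 735 (287 to 2700).

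The 8 that fell most were Kcng1, Ceacam2, Apob, Slco4c1, Chrdl1, Serpina1f, Cyp7b1 and Gsdmc2. Cyp7b1, an oxysterol hydroxylase, had the most reads of them, with 266, 376, 260 and 367 CPM at day 0 and 2.72, 4.23 and 5.81 CPM at day 1 (-6.23, SE 0.28, adjusted p = 3.03e-07). Serpina1f, of the serine protease inhibitor family, had 113 to 200 CPM at day 0 and 1.10, 1.32 and 1.94 CPM at day 1 (-6.86, SE 0.29). Apob, the protein of chylomicrons and very low density lipoprotein, had 34.4, 47.3, 41.5 and 152 CPM at day 0, highest in replicate 4, and 0.130, 0.110 and 0.542 CPM at day 1 (-8.13, SE 0.86). The ratio of its pooled counts was 289, and it was 173 without day 0 replicate 4 and 574 without day 1 replicate 5. Slco4c1, an organic anion transporter of the proximal tubule, had 3 reads at day 1 against 1219 at day 0, a ratio of 263 (95% exact interval from counting error 89.8 to 1280) that was 528 without day 1 replicate 3 and 160 without day 1 replicate 4. Kcng1, a potassium channel subunit, had 2.82 to 6.22 CPM at day 0 and 0 reads at day 1, at least 58.7-fold lower, and at least 35.8-fold without day 1 replicate 4.

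The 1-digit day 1 libraries were then set against the 2 3-digit day 1 libraries in a fit over all 14 libraries. Of 14804 genes, 2364 were higher (16.0%) and 2685 lower (18.1%) in the 1-digit libraries. Without day 1 replicate 2 the count was 1947 calls in all, where 1 library stood for the 3-digit group and was assumed to vary like the other groups. The part of the number format in these differences was not tested. In the 3-digit libraries Havcr1 was at 1863 and 3017 CPM, and the 1-digit libraries were lower by 5.01 on the log2 scale (SE 0.68, adjusted p = 0.000366). Slc34a1 was at 818 and 402 CPM in the 3-digit libraries, and the 1-digit libraries were higher by 3.03 (SE 0.54, adjusted p = 0.00151). Hspa1a was at 14.4 and 23 CPM in the 3-digit libraries, against 16.4 to 34 CPM at day 0 on the same scale, and the 1-digit libraries were higher by 6.44 (SE 1.09, adjusted p = 0.00108).

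By list, 17 of 24 immediate early genes were higher and 1, Egr2, lower in the 1-digit than in the 3-digit day 1 libraries (median 1.53, against -0.03 for all genes), and so were 13 and 0 of 18 heat shock genes (1.55), 7 and 0 of 13 MAP kinase feedback genes (1.02) and 10 and 0 of 18 clock genes (0.99). Proximal tubule genes were higher in 12 and lower in 1 of 25 (0.84). Each of these list counts stands against 16.0% of all genes higher and 18.1% lower. The injury list was higher in 2 and lower in 3 of 20 (-0.16), under both shares. Lcn2 was at 2781 and 1831 CPM in the 3-digit libraries (difference -0.85, SE 0.85, adjusted p = 0.458). Smooth muscle genes were lower in 8 of 10 (-1.57) and fibroblast genes in 5 of 13 (-0.59), G1 and replication genes in 7 of 18 (-1.16). Cnn2 was at 62.1 and 52.5 CPM in the 3-digit libraries and lower by 1.34 in the 1-digit ones (SE 0.19, adjusted p = 0.000427). Kcnj1 and Aqp4 were at 88.3 and 101 CPM and at 36.7 and 71.0 CPM in the 3-digit libraries, and lower still in the 1-digit ones, by 2.62 (adjusted p = 0.000305) and 3.10 (adjusted p = 0.00329).

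Against the 2 day 3 libraries with 1-digit numbers, the only later libraries of the same format, 2343 genes were higher (15.8%) and 2235 lower (15.1%) at day 3 than at day 1. Without day 3 replicate 4 the count was 2772 calls, with 1 day 3 library assumed to vary like the other groups. Immediate early genes were lower at day 3 in 17 of 24 and higher in 0 (median -1.54, against 0.04 for all genes), and heat shock genes lower in 16 of 18 and higher in 0 (-1.95). Klf6 was at 232 and 276 CPM at day 3 (difference -1.71, adjusted p = 8.61e-05), below day 1 and above the 35.2 to 39.1 CPM of day 0 on the same scale. Havcr1 was at 515 and 248 CPM, 2.33 higher than at day 1 (adjusted p = 0.0138). Proximal tubule genes were lower at day 3 in 17 of 25 and higher in 1 (-1.79), with Slc34a1 at 225 and 277 CPM (-4.31, adjusted p = 0.000314). Fatty acid oxidation genes were higher at day 3 in 10 and lower in 3 of 21 (0.51), fibroblast genes higher in 10 of 13 (1.47) and smooth muscle genes in 7 of 10 (2.01). Cnn2 was at 42.6 and 58.1 CPM, 1.15 higher than at day 1 (adjusted p = 0.000943). These comparisons share the 1-digit day 1 libraries, so their values are not independent of each other or of those against day 0.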

How the data were processed

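Per the labels and the study's methods, total kidney RNA was extracted with TRIzol and made into TruSeq libraries. Per the submitters' processing notes, Trimmomatic and STAR were used with genome build mm10; their versions, roles and gene annotation were not given in the sources used here. The authors deposited unnormalized counts of reads with a single mapping, by gene symbol (24411 genes), in columns for no strand and each strand; the reverse-strand column (column 4, 98.5% to 98.7% of strand-assigned reads in the 7 libraries) was used. The 4 rows that name no gene (34.7% to 38.3% of reads) were left out of library sizes and tests.

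Day 1 and day 0 were compared over 7 libraries in R 4.3.3 with edgeR 4.0.16 (filterByExpr, TMM, quasi-likelihood test, Benjamini-Hochberg adjustment, adjusted p under 0.05). The SE is the log2 fold change divided by the square root of F. The fit over 14 libraries had 1 term per day and number format, and its CPM values were scaled over all 14. DESeq2 1.42.0, other scalings, filters and columns, and leaving out each library were alternatives. No 2 libraries of a group agreed within counting noise (chi-square over degrees of freedom of 5.95 to 62.6). Tested on simulated counts for this comparison, 158 of 200 genes changed by 1 and 194 of 200 changed by 2 on the log2 scale were recovered, with 12 and 11 false calls. Lower bounds use 3 counts over the group; intervals cover counting error only. Named were 10 fixed genes, the 8 that rose and fell most (mean of at least 2 CPM, groups not overlapping, predicted models left out), and per list the 2 with the most reads, the 3 with the largest called change and up to 3 of the smaller side; other list members named were chosen after their values were seen. The members and the 33 lists were chosen with earlier results of these data known. Some members of the lists are counted but not reported by name here.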

Additional observations from a re-analysis of the deposited data

Results flagged for a closer look

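Among the 4 day 0 libraries, 5 of 49 measures had 1 library far from the other 3 by Dixon's ratio of gap to range above its 95% critical value, where chance gives about 1 in 20. Day 0 replicate 4 was high for Fos (ratio 0.988), for the share of reads outside genes (0.831) and for the mean log2 CPM of the EGF receptor list (0.839). The summed CPM of that list was instead lowest in replicate 4 (2626, against 2729 to 2902 in the other day 0 libraries). Replicate 2 was high for Atf3 (0.939), and replicate 1 was low for Hspa1a (0.917).

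Tested in the fit over 14 libraries, 8 of the 10 fixed genes differed between the 1-digit and 3-digit libraries of day 1. Over all 14804 genes of that fit 16.0% were higher and 18.1% lower in the 1-digit libraries. These libraries were chosen with earlier results of the data known, so the count does not test that choice. The log2 differences, 1-digit minus 3-digit, were 3.49 for Fos, 2.87 for Egr1, 4.13 for Atf3, 1.90 for Klf6, 6.44 for Hspa1a and 3.03 for Slc34a1, and they were -5.01 for Havcr1 and -1.34 for Cnn2. For Lcn2 and Il6 the adjusted p was 0.458 and 0.233. The part of the number format in these differences was not tested.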

How the results depend on the processing

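The call rule with a change of at least 1 on the log2 scale left 4133 genes in place of 9122, and the replicate number as a block left 6010 calls. Only numbers 3 and 4 occur in both groups, the deviations of same-numbered libraries correlated at 0.0558 and 0.034, and the numbers were not taken to pair the samples. Leaving out each library gave 8310 to 9547 calls and the other alternatives 8215 to 9486. Without TMM the median of all genes moved to -0.16 and Slc34a1 to -0.0539. Leaving out each library, Slc34a1 ranged from -0.11 to 0.20 and Havcr1 from -1.43 to -0.0509. Of 159 alternative values of the fixed genes 156 kept their direction and side of the threshold. Of 526 list medians 493 moved by less than the spread between replicates, 27 by more with no change of sign, and 6 by more with one: the EGF receptor list (-0.14 with at least 10 counts in every library; -0.0179 to 0.37 leaving out each library), and, with 2 tested genes in the 7-library fit, the erythrocyte list (0.86 without a filter, 0.82 in the fit over 14 libraries) and the adipocyte list (-2.99 and -3.02). Another 26 changed sign within the spread, in 6 lists: G1, mitosis, fibroblast, podocyte, macrophage and adipocyte, so that the sign of these medians depends on the setting. Leaving out each library gave 1947 to 4428 calls against the 3-digit libraries and 2772 to 3830 against day 3, where the 2 groups alone gave 3045; where 1 library was left in a group, the other groups gave the spread. Other causes of these shifts were not tested. With 3 day 1 libraries, of which replicate 5 had the fewest reads, small changes could be missed: of genes changed by 1 on the log2 scale in simulated counts, 158 of 200 were recovered.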

Other observations

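Long genes were lower at day 1 more often than short ones. Of the tested genes, 13252 (95.6%) had a gene span in RefSeq (GRCm38.p6). Split into 5 groups of like size by span, the median log2 fold change was 0.165, 0.0639, 0.0143, -0.0862 and -0.237 from the shortest group (median span 4.27 kb) to the longest (123 kb). In the shortest group 40.0% of genes were called higher and 24.2% lower, and in the longest 24.7% and 42.7%. Genes are not independent replicates, and no test was made. The share of reads outside genes, 12.5% to 13.1% at day 0 and 13.8% to 17.0% at day 1, moved with it, and its part was not tested.

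Pdia4, a chaperone of the endoplasmic reticulum, had 144 CPM in day 0 replicate 4 and 2.87 to 6.28 CPM in the other day 0 libraries, against 8.52 to 15 CPM at day 1.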
